A study of Mus musculus with 16 samples.

Results

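Heat shock proteins and their DNAJ co-chaperones were measured in mouse bone marrow-derived macrophages as 53 detected array probes for 43 genes, out of 12282 probes detected in all. Members were taken by name: the Hspa, Hspb, Hspd, Hspe, Hsph and Hsp90 genes, the Dnaj genes, and the receptor co-chaperones Fkbp4, Ptges3 and Stip1. A detected probe had a detection p under 0.05 on each of the 2 arrays of some treatment group. The platform of 25697 probes carried 88 probes for 64 such genes, and 35 of these probes were not detected. That left 21 genes with no detected probe, among them Dnaja1, a cytosolic Hsp70 partner seen on 3 arrays of 16, and Hspb1, a small heat shock protein seen on 0 arrays. No probe of the platform table was named Hsp90ab1, Hspa1b or Dnajb11. All 53 probes were detected in the 3 h experiment and 52 in the 6 h experiment, since the second Dnajc30 probe was detected only at 3 h.

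The cells were primary macrophages grown from bone marrow of male wildtype mice of the c57Bl6/J strain, aged 10 weeks. They received either dexamethasone (Dex, a synthetic glucocorticoid) at 1 µM or ethanol vehicle overnight, and then LPS (bacterial lipopolysaccharide, the ligand of Toll-like receptor 4) or no stimulus. The groups were Dex plus LPS, LPS, Dex and unstimulated, with LPS given for 3 h in one experiment and for 6 h in another, and the comparisons asked what LPS and Dex each changed and what Dex changed under LPS. Each of the 8 groups had 2 arrays, which the labels call technical replicates and for which no separate cultures are named, so the p-values measure only the spread between arrays. In bulk RNA, fewer cells of a type and less RNA per cell cannot be told apart.

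Some 3 h arrays went against their labels. Tnf, which LPS induces, had signals of 61386 to 62850 on the 3 h arrays labelled Dex and 62533 to 62784 on those labelled unstimulated, against 853 to 1266 and 1605 to 2175 on the Dex and unstimulated arrays of the 6 h experiment. Fkbp5, which glucocorticoids induce, was at 231 and 248 on the 3 h arrays labelled Dex, while it reached 2832 to 3147 on the 6 h Dex arrays. The 3 h arrays labelled Dex plus LPS had 1763 and 1982, and those labelled LPS had 227 and 275. At 3 h, Dex plus LPS against LPS is therefore the comparison given with the main results, and the arrays labelled Dex and unstimulated are described separately at the end. The arrays carried between 50 and 53 member probes above the detection limit, all 6 macrophage markers were detected on all 16 arrays, and 0 of 4 T cell and 0 of 3 dendritic cell markers were detected on any. The fibroblast gene Dcn was detected on all 16 arrays with a median signal of 491, and the B cell gene Cd79b on 12 with 195. The neutrophil granule genes Camp, Mpo and Elane were detected on all 16 arrays, with median signals of 881, 555 and 470, and their part in the results was not tested.

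Hsp70 proteins hold unfolded segments of client proteins, J-domain (DNAJ) proteins bring clients to them and stimulate their ATPase, and Hsp110 proteins release the spent nucleotide. Hsp90 takes over some clients, among them the glucocorticoid receptor, which binds hormone only after passing from Hsp70 to Hsp90 through the adaptor Stip1 (Hop) and being held by Ptges3 (p23), with immunophilins such as Fkbp4 and Fkbp5 bound to the complex. Heat shock factor 1 drives the inducible members through heat shock elements in their promoters, while members of the endoplasmic reticulum and mitochondria answer largely to stress in those compartments.

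After 6 h of LPS, a few chaperones moved while most members did not pass the test. Hspa1a was 5.49-fold higher, Dnajb2 2.12-fold higher and Hspa4l at least 2.11-fold higher in LPS than in unstimulated macrophages, and Hspb6 was 2.70-fold and Dnajc12 2.19-fold lower. A probe was called where limma's moderated test gave an adjusted p under 0.05 (Benjamini-Hochberg over all detected probes of the experiment) and the change was at least 2-fold. By that rule 3 of 52 member probes were called higher, where 8.93% of all 11320 probes tested were, and 2 lower, where 7.94% were. In either direction 9.62% of member probes were called, against 16.9% of all probes. At the same adjusted p with no minimum fold, 10 member probes rose and 6 fell, beside 17.2% and 19.5% of all probes. The 6 include Dnajc27, whose fall is a description with no test, as given below. The median log2 change was 0.07 over members and -0.05 over all probes, and with scaling of each array to a common median in place of quantile normalization these were 0.25 and 0.08. That scaling also set 66.6% of all calls on the higher side, against 52.9% with quantile normalization. Without unstimulated replicate 2 the members called higher numbered 5.

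Dex changed fewer members. Under 6 h of LPS, Hspa1a and Hspa1l were the 2 member probes called lower in Dex plus LPS than in LPS, where 2.65% of all probes were called lower, and 0 were called higher by limma, where 1.24% were. With no minimum fold the same 2 probes fell and 0 rose, beside 4.69% and 2.72% of all probes. At an unadjusted p under 0.05 the member probes numbered 14 of 52, beside 2572 of all 11320 probes. Quantile normalization put 31.8% of all calls on the higher side and median scaling 53.5%, with a median over all probes of 0.05 and 0.19. Under 3 h of LPS the test called 1 member lower, again Hspa1l, where 2.47% of all probes were called lower, and 0 higher, where 1.07% were. An unadjusted p under 0.05 was found for 24 of 53 member probes there, beside 4864 of all 11801 probes. With no minimum fold, 6 member probes rose and 7 fell at 3 h, beside 14.3% and 13.9% of all 11801 probes tested. In cells without LPS at 6 h, limma called 0 members higher and 0 lower in Dex than in unstimulated cells. Of all probes 1.65% and 1.75% were called. An unadjusted p under 0.05 was found for 13 of 52 member probes, beside 2742 of all 11320 probes. With no minimum fold 2 member probes fell, Hspa1a and Hspa1l, beside 3.26% of all probes, and 0 rose, beside 3.18%. Median scaling moved the median of all probes in that comparison by 0.29 and put 88.2% of calls on the higher side, against 48.6% with quantile normalization, and the median over members was -0.05 with quantile normalization and 0.22 with median scaling.

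**Figure D1:**
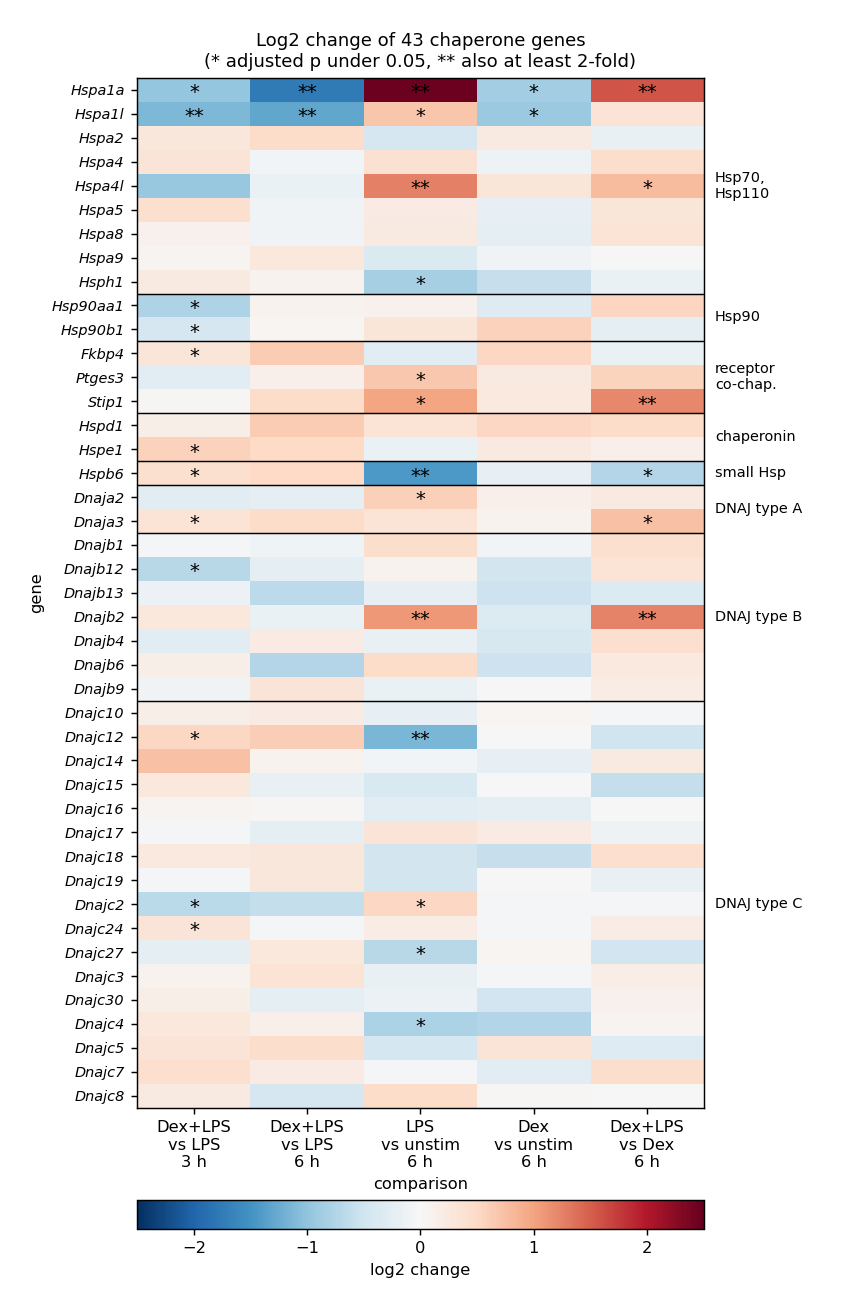
Log2 change of each of the 43 chaperone genes (rows, grouped by role, 1 probe per gene) in 5 comparisons (columns), in red where the group named first was higher and in blue where it was lower. Marks show an adjusted p under 0.05 (1 star) and a change of at least 2-fold as well (2 stars). The Hspa1a and Hspa1l rows are blue for Dex plus LPS against LPS and for Dex against unstimulated cells, and most DNAJ rows carry no mark.

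Hspa1a encodes the stress-inducible cytosolic Hsp70. Its normalised signals (background-corrected and quantile-normalised within the experiment) at 6 h were 378 and 410 in Dex plus LPS, 1368 and 1299 in LPS, 156 and 114 in Dex, and 277 and 213 in unstimulated cells. The LPS arrays stood above all others, the Dex plus LPS arrays lay between the LPS arrays and both groups without LPS, and no groups overlapped. LPS against unstimulated gave a log2 change of 2.46 ± 0.21 (SE, limma adjusted p = 1.44e-05), and Dex plus LPS against LPS gave -1.76 ± 0.21 (3.39-fold lower, limma adjusted p = 0.000782). With each array left out in turn these ran between 2.27 and 2.64 and between -1.82 and -1.70, and both calls held each time. In Dex-treated cells LPS still raised Hspa1a, by 1.56 ± 0.21 on the log2 scale (2.96-fold, limma adjusted p = 0.000364) for Dex plus LPS against Dex. The Dex effect with LPS minus the Dex effect without LPS was -0.89 ± 0.30 and did not pass the test (limma adjusted p = 0.197).

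Hspa1a at 3 h had normalised signals of 656 and 610 in Dex plus LPS against 1228 and 1259 in LPS. The groups did not overlap, and the gene fell by 0.97 ± 0.10 on the log2 scale (1.96-fold, limma adjusted p = 0.00163), just under the 2-fold limit. In cells without LPS at 6 h the log2 change of Hspa1a, Dex against unstimulated, was -0.87 ± 0.21 (limma adjusted p = 0.0381). This result rested on the normalisation, since the deposited signals were 336 and 242 in Dex against 320 and 339 in unstimulated cells and overlapped. With median scaling the change was -0.49 (limma adjusted p = 0.153), and it passed the test in 2 of 8 fits that each left out 1 array.

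Hspa1l, an Hsp70 best known from testis, was also highest in LPS at 6 h. Its normalised signals were 78.5 and 73.4 in Dex plus LPS, 157 and 222 in LPS, 71 and 51 in Dex, and 104 and 126 in unstimulated cells, so the LPS arrays were the highest and the Dex plus LPS arrays lay below the unstimulated ones. Dex plus LPS against LPS gave -1.30 ± 0.23 (2.47-fold lower, limma adjusted p = 0.00796). Without background correction the change was -0.63, and with the authors' processed values -0.75. The call was also lost without LPS replicate 2 (-1.05), without Dex plus LPS replicate 1 (-1.35) or without Dex plus LPS replicate 2 (-1.25). At 3 h the normalised signals were 146 and 131 in Dex plus LPS against 274 and 332 in LPS, with a log2 change of -1.13 ± 0.14 (2.19-fold lower, limma adjusted p = 0.00306). Without LPS replicate 2 the 3 h change was -0.99, under the 2-fold limit. Hspa1l rose by 0.70 ± 0.23 in LPS against unstimulated cells at 6 h (limma adjusted p = 0.0367), a result that held in 3 of 8 fits that each left out 1 array, and in Dex against unstimulated it fell by 0.93 ± 0.23 (limma adjusted p = 0.042), which held in 0 of 8 such fits. Its probe was dim, with deposited signals of 203 and 215 in Dex plus LPS at 6 h, and 1 of the 2 Dex arrays was not above the detection limit.

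When the treatment means of both experiments were fitted together with the experiment as a block, Hspa1a averaged -1.37 ± 0.22 (limma adjusted p = 0.000577) and Hspa1l -1.22 ± 0.19 (limma adjusted p = 0.00065) for Dex plus LPS against LPS. They were the 2 member probes called in that fit, which called 310 of 10839 probes.

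Hspa1a and Hspa1l lie head to head on mouse chromosome 17 (GRCm38.p6). Hspa1a is on the minus strand at chr17:34969359-34972156, Hspa1l is on the plus strand at chr17:34972703-34979228, and their annotated starts are 547 bases apart. Hspa1b, the near-identical neighbour of Hspa1a at chr17:34956429-34959238, had no probe of its own name, and its promoter differs from that of Hspa1a at 4 of 300 bases, so whether the Hspa1a probe also reports Hspa1b was not tested. The RefSeq promoters of both measured genes are shown because these were the 2 members that Dex lowered under LPS in both experiments. They run 5′ to 3′ on the gene's own strand from 250 bases before to 50 after the annotated start, and capitals mark GAANNTTC, an inverted pair of heat shock units that reads the same on both strands.
Hspa1a promoter, chr17:34972107-34972406, minus strand: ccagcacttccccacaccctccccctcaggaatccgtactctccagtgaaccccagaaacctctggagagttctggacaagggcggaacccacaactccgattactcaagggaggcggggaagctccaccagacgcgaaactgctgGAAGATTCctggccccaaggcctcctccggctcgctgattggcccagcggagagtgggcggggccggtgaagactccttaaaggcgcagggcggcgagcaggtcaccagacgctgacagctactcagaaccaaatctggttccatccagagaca
Hspa1l promoter, chr17:34972453-34972752, plus strand: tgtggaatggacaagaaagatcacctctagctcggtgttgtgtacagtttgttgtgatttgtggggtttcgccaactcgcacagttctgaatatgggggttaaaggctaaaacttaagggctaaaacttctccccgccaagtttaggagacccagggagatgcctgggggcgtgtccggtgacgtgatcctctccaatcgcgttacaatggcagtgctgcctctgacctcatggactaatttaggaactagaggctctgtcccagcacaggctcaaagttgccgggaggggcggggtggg
The Hspa1a promoter held 1 GAANNTTC, beginning 104 bases before the start, and 0 of the opposite arrangement TTCNNGAA, which also reads the same on both strands. The Hspa1l window held neither. RefSeq promoters were given for 35 of the 43 genes, in 45 windows, of which 12 (26.7%) held at least 1 of these arrangements against 15.1% of all 32851 windows in the table. GAANNTTC was found in windows of Dnajb6, Dnajc27, Fkbp4, Hspa1a, Hspb6, Hspd1, Hspe1 and Hsph1, and in 7.86% of all windows, and TTCNNGAA in windows of Dnajb4, Dnajb6, Dnajc10, Hspd1, Hspe1 and Hsph1, and in 8.52% of all windows. The full palindrome of the glucocorticoid response element was in 0 of the 45 windows and in 0.00913% of all windows. These matches describe letters only.

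**Figure D2:**
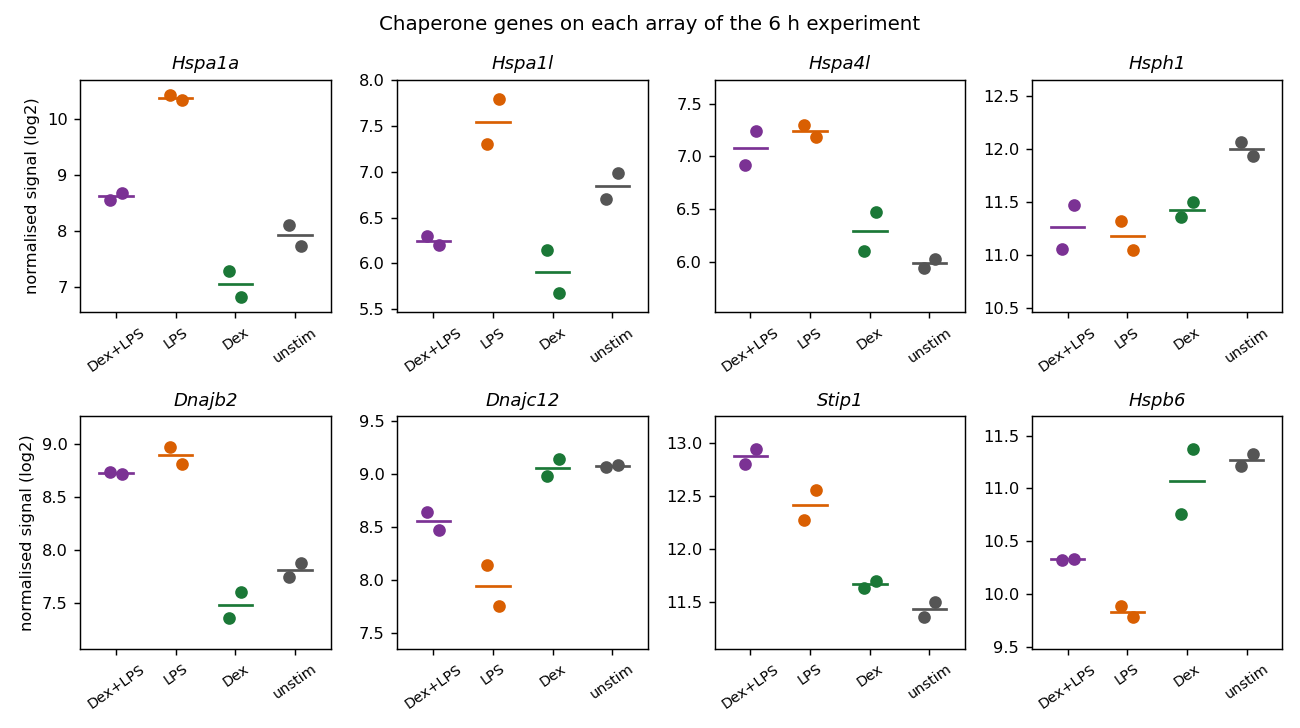
Normalised log2 signal on each array of the 6 h experiment for 8 chaperone genes, each with its own vertical range. Points are arrays (2 per group) and lines are group means. The Hspa1a points of LPS lie near 10.4, those of Dex plus LPS near 8.62 and those of unstimulated cells near 7.92, while Dnajb2, Hspa4l and Stip1 stay high in Dex plus LPS.

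No other Hsp70 or Hsp110 gene passed the test in Dex plus LPS against LPS at 3 h or 6 h. Hspa4l, an Hsp110-type nucleotide exchange factor, had normalised signals at 6 h of 121 and 151 in Dex plus LPS, 158 and 145 in LPS, 69 and 89.1 in Dex, and 61.8 and 65.3 in unstimulated cells. Groups with and without LPS did not overlap, whether or not Dex was present. The unstimulated arrays were not above the detection limit, so the LPS increase is given as at least 2.11-fold (fitted log2 change 1.25 ± 0.20, limma adjusted p = 0.000808), and Dex plus LPS against LPS gave -0.16 ± 0.20 (limma adjusted p = 0.678). The LPS call was lost with a log2 change of 0.56 without background correction, 0.93 with an offset of 50 and 0.39 with the authors' processed values. At 3 h Hspa4l had 63.5 and 120 in Dex plus LPS against 144 and 194 in LPS, without overlap, a log2 change of -0.94 ± 0.31 that did not pass (limma adjusted p = 0.0643). Hsph1 (Hsp105), the inducible Hsp110, moved the other way. It had 2132 and 2834 in Dex plus LPS, 2555 and 2106 in LPS, 2625 and 2888 in Dex and 4303 and 3915 in unstimulated cells, the unstimulated arrays being the highest. Hsph1 fell by 0.82 ± 0.20 in LPS against unstimulated cells (limma adjusted p = 0.00936), a result with an adjusted p of 0.0645 under median scaling.

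The constitutive members of the family did not pass the test at 6 h in any comparison. Hspa8 (Hsc70) had log2 changes of -0.09 ± 0.23 for Dex plus LPS against LPS and 0.22 ± 0.23 for LPS against unstimulated. Hspa4 had -0.07 ± 0.21 and 0.37 ± 0.21 in the same comparisons, and Hspa2 had 0.46 ± 0.20 and -0.42 ± 0.20. With no minimum fold, 3 of the 9 genes of the family rose and 1 fell with LPS at 6 h, beside 17.2% and 19.5% of all probes. Their median log2 change was 0.22. Under LPS with Dex 2 of the 9 fell at 6 h and 2 at 3 h, in each case Hspa1a and Hspa1l. Of all probes 4.69% and 13.9% fell in these comparisons.

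Hsp90aa1, the inducible cytosolic Hsp90, differed between the experiments in its values though not by the test of that difference. At 3 h its normalised signals were 122 and 171 in Dex plus LPS against 249 and 243 in LPS, with no overlap, and it fell by 0.77 ± 0.18 (1.70-fold, limma adjusted p = 0.0245). At 6 h they were 378 and 363 in Dex plus LPS against 352 and 341 in LPS, a log2 change of 0.10 ± 0.23 (limma adjusted p = 0.849). The 6 h effect minus the 3 h effect was 0.86 ± 0.30 (limma adjusted p = 0.163). Hsp90b1, the Hsp90 of the endoplasmic reticulum (Grp94), gave the same contrast, with 13208 and 14232 in Dex plus LPS against 18036 and 18455 in LPS at 3 h. It fell by 0.41 ± 0.08 at 3 h (limma adjusted p = 0.0142) and had a log2 change of 0.05 ± 0.23 at 6 h. Each of these 3 h results held in 5 of 8 fits that left out 1 array. With LPS alone at 6 h, Hsp90aa1 had a log2 change of 0.11 ± 0.23 and Hsp90b1 of 0.30 ± 0.23, and neither passed the test.

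Among the 3 co-chaperones that carry the glucocorticoid receptor through its cycle, Stip1 and Ptges3 rose with LPS at 6 h. Of all probes 17.2% rose. Fkbp4 had a log2 change of -0.28 with LPS, its LPS arrays below the unstimulated ones, and did not pass. Stip1, the adaptor between Hsp70 and Hsp90, had normalised signals of 7161 and 7890 in Dex plus LPS, 4948 and 6032 in LPS, 3180 and 3327 in Dex, and 2630 and 2901 in unstimulated cells. The groups did not overlap, and the Dex plus LPS arrays were the highest. The log2 change was 0.98 ± 0.18 for LPS against unstimulated (1.98-fold, limma adjusted p = 0.00199) and 1.21 ± 0.18 for Dex plus LPS against Dex (2.31-fold, limma adjusted p = 0.000708), and 0.46 ± 0.18 for Dex plus LPS against LPS, which did not pass (limma adjusted p = 0.163).

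Ptges3 (p23), which stabilises the hormone-binding Hsp90 complex, had 1382 and 1557 in Dex plus LPS, 1286 and 1415 in LPS, 1282 and 774 in Dex, and 831 and 866 in unstimulated cells, with the Dex arrays far apart. It rose by 0.67 ± 0.23 with LPS (limma adjusted p = 0.0462), which held in 2 of 8 fits that left out 1 array. Fkbp4 (FKBP52), an immunophilin of the receptor complex, had 2770 and 2352 in Dex plus LPS against 1604 and 1691 in LPS at 6 h, and 3244 and 2510 in Dex against 2260 and 1772 in unstimulated cells. In both pairs the Dex arrays were higher without overlap, but the log2 changes of 0.63 ± 0.20 (limma adjusted p = 0.0956) and 0.51 ± 0.20 (limma adjusted p = 0.161) did not pass. At 3 h Fkbp4 had 3736 and 3753 in Dex plus LPS against 3052 and 2992 in LPS and rose by 0.31 ± 0.09 (limma adjusted p = 0.0387), with an adjusted p of 0.122 under median scaling.

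**Figure D3:**
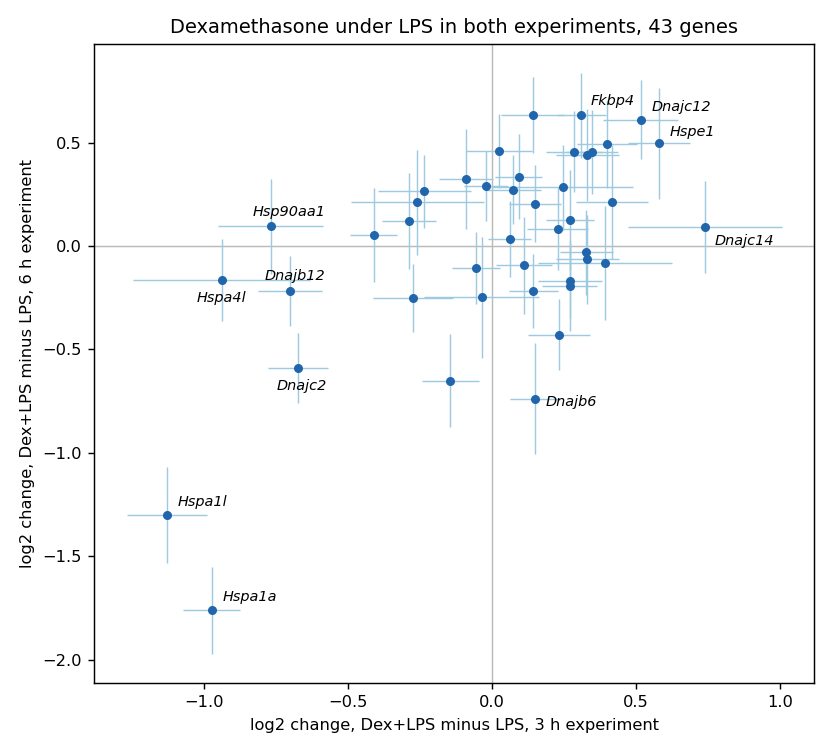
Log2 change of Dex plus LPS minus LPS in the 3 h experiment (horizontal) and the 6 h experiment (vertical) for 43 chaperone genes, with 1 standard error as bars. Hspa1a and Hspa1l lie alone at the lower left, and Hsp90aa1 lies at -0.77 on the horizontal axis and 0.10 on the vertical axis.

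The effect of Dex under LPS at 3 h and at 6 h, from separate arrays, had a Pearson correlation of 0.597 across the 43 genes, and 27 of them (62.8%) had the same sign. Across all 10839 probes tested in both experiments the correlation was 0.567 and 64.5% had the same sign. Without Hspa1a and Hspa1l it was 0.364 over 41 genes. The genes share their arrays and are not independent, so these values are descriptions.

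The chaperonin genes Hspd1 (Hsp60) and Hspe1 (Hsp10), which fold proteins in the mitochondrial matrix, lie head to head on chromosome 1, where their annotated starts overlap. Hspd1 had normalised signals at 6 h of 9012 and 8188 in Dex plus LPS, 5250 and 5826 in LPS, 6431 and 6004 in Dex, and 3918 and 4873 in unstimulated cells. The Dex plus LPS arrays were the highest, yet the log2 change against LPS of 0.64 ± 0.18 did not pass (limma adjusted p = 0.0656). A second Hspd1 probe rose by 0.90 ± 0.25 in LPS against unstimulated cells (limma adjusted p = 0.0177), where the brighter probe had 0.34 ± 0.18 (limma adjusted p = 0.176). Hspe1 had 2747 and 2951 in Dex plus LPS against 1814 and 2004 in LPS at 3 h, without overlap, and rose by 0.58 ± 0.11 (limma adjusted p = 0.0107). At 6 h its log2 change was 0.50 ± 0.27 in that comparison (limma adjusted p = 0.303). The mitochondrial Hsp70 gene Hspa9 (mortalin) passed the test in 0 comparisons with either of its probes, with a log2 change of 0.27 ± 0.17 for Dex plus LPS against LPS at 6 h.

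Hspb6 (Hsp20), the only small heat shock protein with a detected probe, had normalised signals at 6 h of 1285 and 1286 in Dex plus LPS, 945 and 883 in LPS, 1735 and 2657 in Dex, and 2371 and 2563 in unstimulated cells. The LPS arrays were the lowest and the Dex plus LPS arrays the next. It fell by 1.43 ± 0.21 in LPS against unstimulated cells (2.70-fold, limma adjusted p = 0.000565) and by 0.74 ± 0.21 in Dex plus LPS against Dex (limma adjusted p = 0.0262). Dex plus LPS against LPS gave 0.49 ± 0.21 at 6 h (limma adjusted p = 0.205) and did not pass. At 3 h Hspb6 had 1218 and 1113 in Dex plus LPS against 950 and 822 in LPS and rose by 0.40 ± 0.10 (limma adjusted p = 0.0319).

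Among the members, the chaperones of the endoplasmic reticulum mostly did not pass the test in the main comparisons. The 5 measured genes of its lumen were Hspa5, Hsp90b1, Dnajb9, Dnajc3 and Dnajc10. With no minimum fold, 0 of them passed in LPS against unstimulated cells at 6 h, beside 17.2% of all probes higher and 19.5% lower. In Dex against unstimulated cells at 6 h 0 passed, beside 3.18% and 3.26%. In Dex plus LPS against LPS at 6 h 0 passed, beside 2.72% and 4.69%. At 3 h 1, Hsp90b1, fell in Dex plus LPS against LPS, beside 13.9% of all probes. Calr, a lectin chaperone outside the members, was called lower in that 3 h comparison and is given below. For Dex plus LPS against LPS at 6 h the log2 change was -0.08 ± 0.28 for Hspa5 (BiP), 0.32 ± 0.24 for Dnajb9 (ERdj4), 0.34 ± 0.20 for Dnajc3 (p58IPK) and 0.20 ± 0.19 for Dnajc10 (ERdj5). Hspa5 had 483 and 375 in Dex plus LPS, 458 and 446 in LPS, 349 and 337 in Dex, and 284 and 545 in unstimulated cells, so its unstimulated arrays spanned all other groups.

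Of the DNAJ genes, which supply clients to Hsp70, 2 were type A, 7 type B and 17 type C. With no minimum fold, 1 of the type A genes and 1 of the type B genes rose with LPS at 6 h. Of the type C genes 1 rose and 3 fell, Dnajc27 among them as a description with no test. The shares of all probes were 17.2% higher and 19.5% lower. Dnajb2 (HSJ1), a co-chaperone that binds ubiquitin, had normalised signals of 425 and 420 in Dex plus LPS, 502 and 450 in LPS, 163 and 194 in Dex, and 214 and 235 in unstimulated cells. Arrays with LPS lay above those without it, with or without Dex. The log2 change was 1.08 ± 0.18 for LPS against unstimulated (2.12-fold, limma adjusted p = 0.00102), 1.25 ± 0.18 for Dex plus LPS against Dex (2.38-fold, limma adjusted p = 0.00053) and -0.17 ± 0.18 for Dex plus LPS against LPS (limma adjusted p = 0.624). The change with LPS was under 2-fold without background correction (0.77), with an offset of 50 (0.98) and with the authors' processed values (0.74).

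Dnajc12, a co-chaperone of the aromatic amino acid hydroxylases, had 400 and 354 in Dex plus LPS, 282 and 216 in LPS, 505 and 565 in Dex, and 538 and 545 in unstimulated cells. The LPS arrays were the lowest, and only the Dex and unstimulated arrays overlapped. It fell by 1.13 ± 0.19 in LPS against unstimulated cells (limma adjusted p = 0.0012), though the change was under 2-fold without LPS replicate 2 (-0.94), without background correction (-0.83) and with the authors' processed values (-0.80). Dex plus LPS against LPS gave 0.61 ± 0.19 at 6 h (limma adjusted p = 0.0858) and, at 3 h, 0.52 ± 0.13, which passed (limma adjusted p = 0.0293).

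Other DNAJ genes passed with LPS at 6 h. Dnaja2 rose by 0.60 ± 0.17, the ribosome-associated Dnajc2 rose by 0.51 ± 0.17 and Dnajc4 fell by 0.80 ± 0.24. They passed in 4, 2 and 4 of 8 fits that left out 1 array. The Dnajc27 probe met the detection rule at 6 h only through the groups without LPS. Its fall of 0.70 on the log2 scale is therefore a description with no test. The LPS arrays of Dnajc27 were not above the detection limit, so its decrease is at least 1.25-fold. Dnajc16 passed only by its second probe, which fell by 0.80, while its brighter probe had -0.27. The second Dnajc2 probe had 0.48 and did not pass. Dnajb1, the main inducible Hsp40 of the cytosol, had 5870 and 6075 in Dex plus LPS, 6289 and 6560 in LPS, 4423 and 4602 in Dex, and 4350 and 5204 in unstimulated cells. Its groups with LPS lay above those without, but the log2 change of 0.43 ± 0.17 did not pass (limma adjusted p = 0.0757), and Dex plus LPS against LPS gave -0.10 ± 0.17.

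Under 3 h of LPS, Dnajb12, a J-protein of the endoplasmic reticulum membrane, had 822 and 897 in Dex plus LPS against 1314 and 1485 in LPS and fell by 0.70 ± 0.11 (limma adjusted p = 0.00673). Dnajc2 had 1121 and 1306 against 1949 and 1914 and fell by 0.68 ± 0.10 (limma adjusted p = 0.00637). Neither gene's arrays overlapped, and both results held with each array left out in turn. At 6 h the corresponding log2 changes were -0.22 ± 0.17 for Dnajb12 and -0.59 ± 0.17 for Dnajc2, and neither passed. The second Dnajc2 probe had log2 changes of -0.08 at 3 h and -0.33 at 6 h and did not pass in either experiment. The mitochondrial Dnaja3 rose by 0.34 ± 0.09 and Dnajc24, which serves diphthamide synthesis, by 0.33 ± 0.09 at 3 h. Dnaja3 passed in 2 and Dnajc24 in 0 of 8 fits that left out 1 array, and with median scaling their adjusted p was 0.108 and 0.0673. Among the other 3 h rises, Hspe1 passed in 6, Dnajc12 in 4, Hspb6 in 3 and Fkbp4 in 2 of 8 such fits. The second Dnajc30 probe, one of the 7 that passed lower, met the detection rule through the LPS arrays alone, so its normalised signals of 33.2 and 40.2 in Dex plus LPS against 63.7 and 69.1 in LPS are a description with no test. The brighter Dnajc30 probe had a log2 change of 0.14 ± 0.09.

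**Figure D4:**
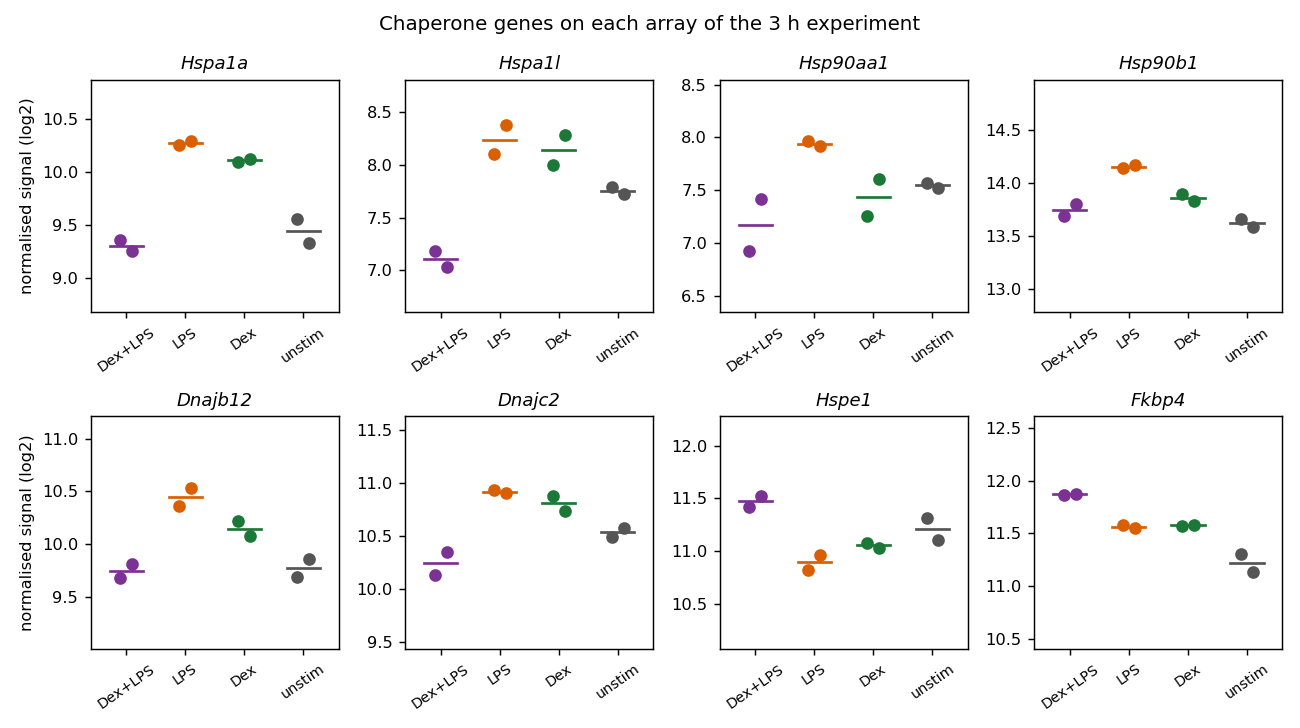
Normalised log2 signal on each array of the 3 h experiment for 8 chaperone genes, each with its own vertical range. Points are arrays (2 per group, named by their labels) and lines are group means, and the arrays labelled Dex and unstimulated went against their labels. Hspa1a lies near 9.31 in Dex plus LPS and 10.3 in LPS, and for Hsp90aa1, Hsp90b1, Dnajb12 and Dnajc2 the Dex plus LPS points also lie below the LPS points.

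Dnajb2 and Stip1, with Hspa1a, were the 3 members called higher in Dex plus LPS than in Dex at 6 h, where 6.63% of all probes were called higher, and 0 were called lower, where 6.45% were. With no minimum fold 5 member probes rose, these 3 with Dnaja3 and Hspa4l, and 1, Hspb6, fell, beside 13.3% and 14.8% of all probes. For the Dex effect with LPS minus that without LPS at 6 h, limma called 0 members, where 0.592% of all probes were called. At an unadjusted p under 0.05 there were 1838 of all 11320 probes and 8 of 52 member probes. Without Dex replicate 2 limma called 1. Median scaling put 14% of all calls of this difference on the higher side, against 25.4% with quantile normalization. For the Dex effect under LPS at 6 h minus that at 3 h, limma called 0 members, where 0.886% of all probes were called. At an unadjusted p under 0.05 there were 1941 of all 10839 probes and 10 of 52 member probes. In that difference 81.4% of all calls were on the higher side with median scaling and 37.5% with quantile normalization, and time and experiment cannot be told apart.

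Other chaperone and folding genes were read beside the members from a list of 65, of which 54 had a detected probe. Fkbp5 (FKBP51), the immunophilin that lowers the receptor's hormone affinity, rose with Dex in the presence and absence of LPS. Its log2 change was 4.26 ± 0.17 for Dex against unstimulated at 6 h, and for Dex plus LPS against LPS it was 3.82 ± 0.19 at 3 h and 2.70 ± 0.17 at 6 h (limma adjusted p = 1.82e-06, 0.000102 and 2.43e-05). Herpud1, of the degradation pathway of the endoplasmic reticulum, rose by 1.24 ± 0.19 with Dex and by 1.07 ± 0.19 in Dex plus LPS against LPS at 6 h, the second call being lost without LPS replicate 1 (0.87), without Dex plus LPS replicate 1 (1.15) or without Dex plus LPS replicate 2 (0.99). Ddit3 (CHOP), a stress transcription factor, fell by 1.04 ± 0.25 with Dex at 6 h (limma adjusted p = 0.0372), just past the 2-fold limit. Its normalised signals were 1280 and 1791 in Dex against 3848 and 2530 in unstimulated cells, the latter far apart. With LPS against unstimulated at 6 h it fell by 0.86 ± 0.25 (limma adjusted p = 0.0222).

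At 3 h, Dex plus LPS against LPS gave -1.24 ± 0.10 for the lectin chaperone Calr and 1.02 ± 0.09 for the prefoldin subunit Pfdn2. At 6 h, Dex plus LPS against Dex gave 1.12 ± 0.19 for the cytosolic chaperonin subunit Cct3 and 1.02 ± 0.22 for Hspbap1, whose product binds a small heat shock protein, and -1.27 ± 0.17 for Fkbp5. All of these were called by limma. The calls of Ddit3, Pfdn2, Cct3 and Hspbap1 were not followed under other processing or with arrays left out. At 6 h the probe of the receptor gene Nr3c1 met the detection rule through the LPS arrays alone. Its values are therefore a description with no test. The normalised signals of Nr3c1 were 63.2 and 58.9 in Dex plus LPS and 82.1 and 88.6 in LPS. They were 49 and 51.1 in Dex and 42.5 and 63.1 in unstimulated cells. Bag3, an Hsp70 co-chaperone and heat shock factor target, rose by 0.33 ± 0.09 in Dex plus LPS against LPS at 3 h (limma adjusted p = 0.0421). At 6 h it had log2 changes of 0.27 ± 0.20 in that comparison and -0.34 ± 0.20 for LPS against unstimulated, and neither passed. No probe was named Hsf1. At an adjusted p under 0.05 with no minimum fold, 6 of the 54 genes rose with LPS at 6 h. That count takes in Nr3c1, for which it is no test because of the detection rule. With LPS 2 fell, and the shares of all probes were 17.2% higher and 19.5% lower. In Dex plus LPS against LPS at 6 h 3 rose and 0 fell, beside 2.72% and 4.69% of all probes.

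On the 3 h arrays whose labels are in doubt, limma called 0 members in LPS against the arrays labelled unstimulated, where 2.92% of all probes were called, and 0 in Dex against unstimulated, where 0.797% were. At an unadjusted p under 0.05 the member probes numbered 23 and 17 of 53, beside 5188 and 3634 of all 11801 probes. With no minimum fold 9 member probes rose and 12 fell in LPS against unstimulated, beside 15.6% and 16.2% of all probes. The 9 include the second Dnajc30 probe, which met the detection rule through the LPS arrays alone. Its rise of 0.89 on the log2 scale, 0.72 to 1.06 with 1 array left out, is a description with no test. In Dex against unstimulated 2 member probes rose and 6 fell, beside 6.11% and 4.58%. Hspa1a had 1095 and 1120 on the arrays labelled Dex and 1228 and 1259 in LPS, against 756 and 645 on the arrays labelled unstimulated, and rose by 0.67 ± 0.10 and 0.83 ± 0.10. Dnajb2 had 441 and 463 in LPS against 789 and 724 on the arrays labelled unstimulated, a decrease of 0.74 ± 0.11 where the 6 h experiment had an increase. The Dnajc2 probes passed in opposite directions in LPS against unstimulated at 3 h, at 0.38 and -0.49. Median scaling put 91.6% of all calls on the higher side in LPS against unstimulated and 85.5% in Dex against unstimulated, against 74.1% and 71.3% with quantile normalization.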

How the data were processed

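Per the labels, biotin-labelled cRNA of macrophage RNA was hybridised to Illumina bead arrays, and the submitters' processing notes name GenomeStudio. The authors deposited 1 table of unnormalised probe intensities with detection p-values per experiment (per the file headers), a 6 h table of intensities headed as cubic spline-normalized, and a value table whose 6 h columns were log2 values. Of the latter, direction and scale followed the arrays of the same name, while its centring was not stated there. The 3 h columns name treatments but not replicate numbers. In all, 32 further columns were not used.

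Intensities were background-corrected with limma 3.58.1 in R 4.3.3 (normexp with negative controls inferred from the detection p-values, offset 16), quantile-normalised within each experiment and taken to log2. A linear model with 4 group means over the 8 arrays of an experiment gave log2 changes, standard errors and p-values, adjusted over all detected probes (adjusted p under 0.05, and at least 2-fold for a call). All 16 arrays entered the 6 h minus 3 h fit. On simulated data, the step called 93 of 100 probes changed by 1.5 on the log2 scale among 11320 at 6 h, and 92 of 100 among 11801 at 3 h. Gene symbols came from the platform table, with 23846 probes named, 1851 unnamed, and 23830 matched to RefSeq by gene identifier. Promoters are from RefSeq (GRCm38.p6).

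Members and lists were chosen with earlier results of these data known. The genes named are all called members, the chaperones of the receptor cycle and the classical heat shock response, members described by role that passed the test, and, of the other chaperones, those called plus Hsf1, Bag3, Fkbp5 and Nr3c1. A gene with several probes is described by the one with the highest mean over the 16 arrays, and signals of different probes are not compared. The number of arrays limits the precision. Same-numbered arrays of different 6 h groups did not deviate together (correlations of deviations -0.212 to 0.005), nor did same-lettered 3 h columns (0.006 to 0.023), so neither pairs the arrays.

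Alternatives were median scaling, no background correction, an offset of 50, all probes or only those detected on all 8 arrays, only the compared groups, 1 probe per gene, no minimum fold, the authors' processed and cubic spline-normalized values, a block for the replicate number, treatment means with the experiment as a block, and leaving out each array. The arrays of the cubic spline-normalized 6 h table had rank correlations of 0.885 to 0.923 with the unnormalised arrays of the same name, and went against their Dex labels: Fkbp5 was at 426 and 414 in Dex against 414 and 464 in unstimulated cells there. Amino acid sequences were not used here.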

Additional observations from a re-analysis of the deposited data

Results flagged for a closer look

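Effects under the same contrast differed past the test for Fkbp5 and Calr among the other chaperones. For Fkbp5, the Dex effect with LPS minus that without LPS at 6 h was -1.56 ± 0.25 on the log2 scale (limma adjusted p = 0.0268), and the call was lost in 7 of 8 fits that each left out 1 array, all but the one without Dex replicate 2, with a range of -1.67 to -1.45. The Dex effect on Fkbp5 under LPS at 6 h minus that at 3 h was -1.12 ± 0.24 (limma adjusted p = 0.0459), and the call was lost in 12 of 16 such fits, with a range of -1.32 to -0.92. The same difference for Calr was 1.05 ± 0.19 (limma adjusted p = 0.0289), and the call was lost in 8 of 16 fits, those that left out any LPS or Dex plus LPS array, with a range of 1.00 to 1.10. Under other processing, the call of the 6 h minus 3 h difference was lost in 5 of 8 alternatives for Fkbp5. Among them were median scaling (-0.80), no background correction (-0.81) and the authors' processed values (-0.77). For Calr it was lost in 1 of 8, the authors' processed values (0.97). The 6 h minus 3 h differences set separate experiments against each other, and time and experiment cannot be told apart. For the members Hspa1a and Hsp90aa1 the effect at 6 h minus that at 3 h was -0.79 ± 0.23 and 0.86 ± 0.30, neither past the test.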

How the results depend on the processing

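With no minimum fold the members counted were 10 higher and 6 lower for LPS against unstimulated at 6 h, 2 lower for Dex against unstimulated, 6 for Dex plus LPS against Dex, 6 higher and 7 lower for Dex plus LPS against LPS at 3 h, and 21 and 8 for LPS and Dex against unstimulated at 3 h. Without background correction LPS at 6 h gave 1 higher and 1 lower, where all probes gave 604 and 423 (1011 and 899 with the main processing). Dex plus LPS against LPS gave 1 lower at 6 h and 0 at 3 h, where all probes gave 150 and 125 (300 and 292 before). Dex plus LPS against Dex gave 1, where all probes gave 460 higher and 332 lower (750 and 730 before). An offset of 50 gave 1 higher for LPS at 6 h, beside 810 of all probes. It gave 0 lower for Dex plus LPS against LPS at 3 h, beside 199 of all probes. The authors' processed values gave 1 lower for LPS at 6 h, beside 331 of all probes. For Dex plus LPS against LPS they gave 1 lower at 6 h and 0 at 3 h, beside 195 and 125 of all probes. Median scaling gave 5 higher for LPS at 6 h, beside 1275 of all probes. For LPS at 3 h it gave 1, beside 415 higher and 38 lower of all probes. Probes detected on all 8 arrays gave 1 lower for Dex plus LPS against LPS at 6 h, beside 190 of 9019. The fit with the experiment as a block gave 2 lower, beside 224 of 10839. The replicate number as a block left 3 higher and 2 lower for LPS at 6 h and 2 lower for Dex plus LPS against LPS, and changed no call of a member or member count, while for Fkbp5 the Dex effect with LPS minus without was -1.558 with a limma adjusted p of 0.0651. At 3 h, a replicate block by the letter of the column, chosen after seeing the data, left 1 lower for Dex plus LPS against LPS, and 11 of the 13 members that passed there still passed. The slide block was not run because the headers name no slide.

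In the cubic spline-normalized 6 h table, whose Dex arrays went against their labels, LPS against unstimulated gave 1 higher and 0 lower. Of all probes 209 and 46 were called there. Dex plus LPS against LPS gave 0 lower, as it did over all probes. Dex plus LPS against Dex gave 1, beside 200 higher and 48 lower of all probes. Directions turned for Hspa1a (0.208), Hspa1l (0.07), Herpud1 (-0.019) and Fkbp5 (-0.033) in Dex plus LPS against LPS, for Fkbp5 in Dex against unstimulated (-0.063) and in the Dex effect with LPS minus without (0.029), for Dnajb2 in Dex plus LPS against Dex (-0.058) and for Hspa4l in LPS against unstimulated (-0.126). The cause was not tested. Hspa1a rose with LPS under all 10 alternatives other than leaving out arrays, between 1.59 and 2.64, and its fall in Dex plus LPS against LPS at 6 h held under 10 of 11.

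Leaving out 1 array at a time gave 3 to 5 higher and 1 to 3 lower for LPS at 6 h, 0 to 2 lower for Dex, 1 to 2 and 0 to 3 lower for Dex plus LPS against LPS at 6 h and 3 h, 3 to 4 for Dex plus LPS against Dex, and 0 to 1 for the Dex effect with LPS minus without and for LPS at 3 h. The numbers of all probes called also changed between these fits. The counts for LPS at 3 h take in the second Dnajc30 probe, which is described without a test. Signal over background limited dim members such as Hspa1l, Hspa4l and Dnajc27, whose changes shrink with a larger offset. The median residual SD of members was 0.1 on the log2 scale at 3 h and 0.2 at 6 h, so smaller changes passed at 3 h.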

Other observations

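In the cubic spline-normalized 6 h table, Hspa1a had signals of 733 and 836 on the arrays labelled Dex plus LPS, 699 and 657 on those labelled LPS, 226 and 221 on those labelled Dex, and 216 and 233 on those labelled unstimulated. Hspa1l had 288 and 234 on the arrays labelled Dex plus LPS, 259 and 237 on those labelled LPS, 172 and 220 on those labelled Dex, and 160 and 181 on those labelled unstimulated. The arrays labelled with LPS lay above those without it for both genes, and those labelled Dex plus LPS and LPS overlapped for Hspa1l. Tsc22d3, which glucocorticoids induce, was at 512 and 430 on the Dex plus LPS arrays of that table against 485 and 480 on its LPS arrays, while the unnormalised 6 h table had 3523 and 3648 against 424 and 346.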
